A study of Drosophila melanogaster with 2 samples.

Results

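Zelda-GFP binding was described at 10 genes of the EGFR, Ras and MAP kinase pathway of Drosophila melanogaster: spi, aos, Egfr, sty, Ras85D, Raf, Dsor1, rl, pnt and aop. The genes were taken by their symbols, by a rule that uses no binding value but that was made with earlier results of these data known, and they are 10 of the 13968 protein-coding genes in the annotation. Every peak summit inside a gene or within 5 kb of either end was listed. A summit was called thresholded when it belonged to the authors' list of 2876 peaks that passed their test of reproducibility between replicates. The 10 genes held 27 thresholded summits and 204 summits of the relaxed list called from both replicates together, in 370 kb of sequence.

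The pathway passes a signal from the cell surface to the nucleus. A secreted ligand activates the receptor Egfr, the receptor loads the small GTPase Ras with GTP, and Ras starts a chain of 3 protein kinases (Raf, Dsor1 and rl) whose last member phosphorylates transcription factors of the ETS family. In the embryo the pathway patterns the ventral ectoderm and later the trachea, muscle and nervous system, and several of its inhibitors are themselves switched on by the signal. Zelda, the protein of zld (vfl in the labels), binds DNA through zinc fingers and, as a pioneer factor, opens chromatin in the early embryo; its textbook site reads CAGGTAG.

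Chromatin came from whole embryos of mixed sex, aged 0 to 24 h, of 1 transgenic line that stably expresses Zelda with GFP at its C terminus. The labels give the 2 biological replicates the numbers 2 and 3. They form 1 group with nothing to contrast it with, so no test across samples was possible and no p-value is given. By the description of the samples an antibody to GFP was used for precipitation, while the labels' antibody field reads vfl, and chromatin was sonicated to a size range of 200 to 800. Embryos of all these ages were pooled, so strong binding in few cells and weak binding in many cannot be told apart. Gene expression was not measured.

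Values are the authors' signal for each peak, with its rank by signal within a list of 30000 relaxed peaks, rank 1 being the strongest. By its deposited title the pooled relaxed list holds background as well as peaks, so a relaxed summit alone does not show binding. The thresholded peaks were the 2876 strongest pooled peaks, with signals between 61.8 and 1231. Highest signals were 767 in the list of replicate 2 and 466 in that of replicate 3, so signals are compared only within a list and the replicates are set side by side by rank. A replicate's value is that of its nearest summit within 200 bp.

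Of the 10 genes, 8 had a thresholded summit in the gene or within 5 kb of it; 40.7% of all protein-coding genes did. Longer genes have more room for summits. Both members under 5 kb long (Ras85D and Dsor1) had one, against 37.4% of all genes of that length, and so did both members of 5 to under 20 kb (spi and aos), against 50.2%. Among the 6 members of 20 kb or more, sty, Raf, pnt and aop had one and Egfr and rl did not, against 51.1% of all genes of that length. At Ras85D and Dsor1 every thresholded summit lay closer to the start of another gene.

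A stricter definition asks for a thresholded summit within 1 kb of an annotated transcript start. It was met by 7 of 10 members, namely spi, aos, sty, Ras85D, Raf, pnt and aop, against 19.7% of all protein-coding genes. Of the 6 members of 20 kb or more, 4 met it, against 25.5% of genes that long. The count rested in part on weak or distant summits: 4 members met it within 500 bp of a start, and 3 members met it with the stronger 1438 thresholded peaks. In the relaxed pooled list 9 of 10 members had a summit in the gene or within 5 kb, with rl the exception, against 84% of all genes.

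The members differed widely in the number and strength of their summits. Raf had 9 thresholded summits, aop 6, spi and Ras85D 3 each, aos and pnt 2 each, sty and Dsor1 1 each, and Egfr and rl 0. By the strongest pooled summit the order was Raf (signal 286, rank 117), spi (235, rank 174), aos (141, rank 552), Ras85D (136, rank 596), pnt (122, rank 763), aop (118, rank 818), Dsor1 (87.4, rank 1497), sty (73, rank 2103) and Egfr (45.6, rank 4705), with no pooled summit at rl. Raf and spi led in both replicates, with best ranks of 113 and 232 in replicate 2 and of 131 and 136 in replicate 3. The next 4 changed places between replicates: aos, Ras85D, pnt and aop had best ranks of 475, 687, 745 and 845 in replicate 2, and of 772, 613, 985 and 646 in replicate 3. The last 3 did too: sty, Dsor1 and Egfr had best ranks of 1400, 1740 and 7924 in replicate 2, and of 1500, 1182 and 1428 in replicate 3. The order among those 4, and among the last 3, is therefore not fixed by these data. All of those 4 ranked better than the last 3 in both replicates.

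**Figure D1:**
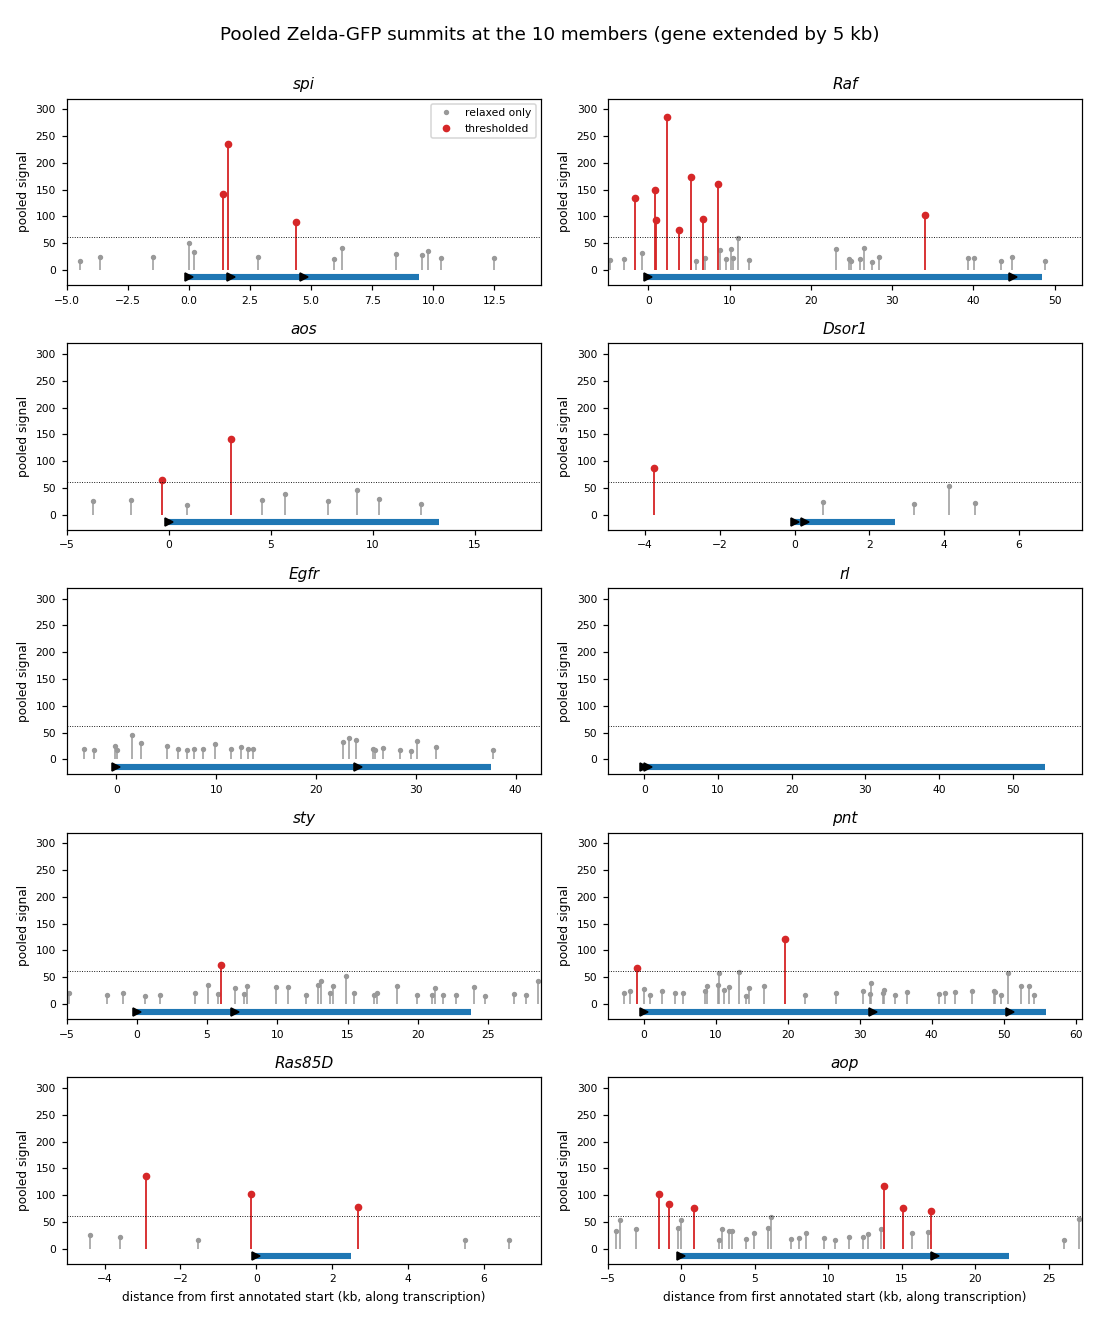
Pooled summits at each of the 10 genes, with the distance along transcription from the gene's first annotated start in kb on the x axis and the authors' pooled signal on the y axis; red points are thresholded, grey points are in the relaxed list only, blue bars are genes, arrowheads are starts, and the dotted line is the lowest thresholded signal, 61.8. Raf has a row of 8 thresholded summits at its first start and spi a strong one at an internal start, while Egfr stays under the line and rl has no summit.

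Per unit of length, the members' windows held more thresholded summits than the chromosome arms as a whole. The arms include sequence away from genes, and 64.5% of all thresholded summits lay within 500 bp of a start. Density in the windows of all genes was not computed, so these values do not set the members apart from other genes. The 10 windows held 7.29 thresholded summits per 100 kb, against 2.15 per 100 kb of all arms, and 5.51 pooled summits per 10 kb, against 2.24. The compact Ras85D window had 24 thresholded summits per 100 kb, aop 18.6, spi 15.5 and Raf 15.4. The Ras85D value rests on 3 summits, each nearest to the start of another gene. Relaxed summits were ordered differently: sty had the most, at 10.1 per 10 kb with 1 thresholded summit among 34, followed by aop at 9.92 and spi at 8.24. Egfr and pnt had 27 and 39 pooled summits, of which 0 and 2 were thresholded, so at these long genes many weak summits stood beside few strong ones.

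**Figure D2:**
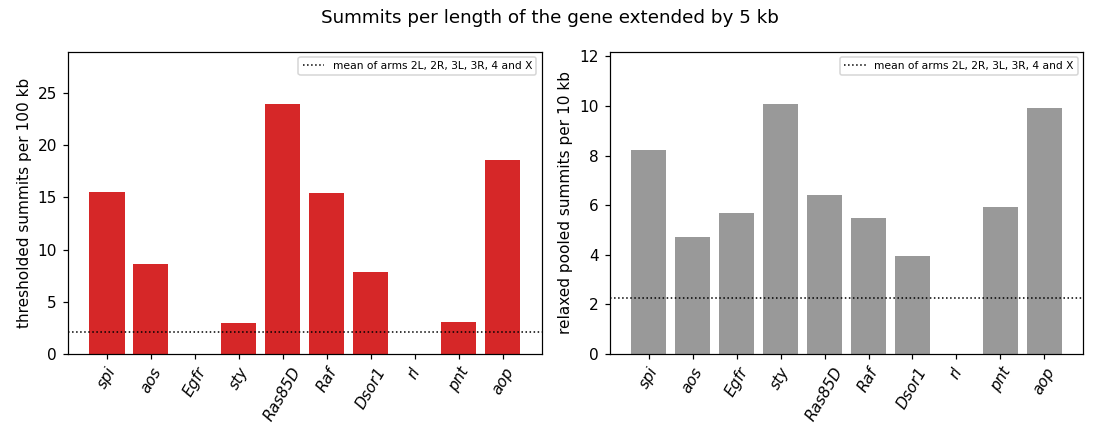
Thresholded summits per 100 kb (left, red bars) and relaxed pooled summits per 10 kb (right, grey bars) for each gene extended by 5 kb; the dotted lines are the mean over the chromosome arms. Ras85D, aop, spi and Raf lead on the left at 15.4 to 24, and sty and aop lead on the right at 10.1 and 9.92.

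The ligand gene spi encodes Spitz, a ligand of the TGF-alpha type made as a membrane-bound precursor, which is the main activating ligand of the receptor in the embryo. It lies on arm 2L at 19567900 to 19577315 on the minus strand (FBgn0005672) and has 3 annotated starts. Its strongest summit, at 19575726, lay 139 bp upstream of the second start and had a signal of 235 at rank 174. This summit ranked 232 in replicate 2 (signal 126) and 136 in replicate 3 (signal 108), a rank bettered among member summits only by the strongest Raf summit, in each replicate. A second peak, which overlaps the first, had its summit 199 bp away, at 19575925, with a signal of 141. By the ratio of ranks the replicates differed more on it than on any other of the 27 thresholded summits. Its rank was 1002 in replicate 2 and 6530 in replicate 3. The last start of the gene had a weaker summit 327 bp upstream (signal 90.1, rank 1416), with rank 1697 in replicate 2 and 1446 in replicate 3. The first start had only a relaxed summit, at -10 bp, with a signal of 50.7 and rank 3964. Binding above the threshold at spi thus lay at both internal starts, in introns of the longer transcripts, and not at the first start. The sequence of the strongest spi summit is shown because it is the strongest promoter-proximal summit of the 10 genes; capitals mark the word ACAGTGG, described further on.
spi internal start (dm6 chr2L:19575626-19575826, plus strand): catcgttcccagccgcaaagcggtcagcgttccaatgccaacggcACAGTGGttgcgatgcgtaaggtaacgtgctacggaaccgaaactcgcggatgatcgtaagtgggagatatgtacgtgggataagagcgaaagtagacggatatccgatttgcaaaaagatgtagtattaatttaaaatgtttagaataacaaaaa

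The gene aos encodes Argos, a secreted protein that binds Spitz and keeps it from the receptor, and it is a textbook target of the pathway. It lies on arm 3L at 16470386 to 16483650 on the minus strand (FBgn0004569). Its stronger summit, at 16480582, had a signal of 141 (rank 552) and lay in an intron 3068 bp downstream of the only start, with rank 475 in replicate 2 and 772 in replicate 3. The other, at 16483970, lay 320 bp upstream of the start with a signal of 64.3 (rank 2677), close to the lowest thresholded value. Its ranks were 5691 in replicate 2 and 996 in replicate 3, so it was a top peak of 1 replicate only. Both summits also fall within introns of CG33158, a gene that overlaps aos.

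Egfr encodes the receptor tyrosine kinase itself and lies on arm 2R at 21522420 to 21559977 on the plus strand (FBgn0003731), with starts 24.2 kb apart. None of its 27 pooled summits passed the threshold. The strongest, at 21523959, lay 1539 bp inside the gene in an intron, with a signal of 45.6 and rank 4705. Replicate 3 had it at rank 1428 with a signal of 40.1, while replicate 2 had no summit within 200 bp. It held CAGGTAG at 2 places, centred at -27 and 5 bp from the summit. The next strongest by a start lay 874 bp upstream of the internal start (signal 39.9, rank 5861), with rank 13040 in replicate 2 and 3714 in replicate 3. The first start had a best summit of rank 12891 at -106 bp. The receptor gene thus had many weak relaxed summits, with the authors' −log10 q between 0.237 and 3.02, and these alone do not show binding. Its best summit was seen in 1 of the 2 replicates.

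The gene sty encodes Sprouty, an intracellular inhibitor of receptor tyrosine kinase signalling that the signal itself induces. It lies on arm 3L at 3401153 to 3424935 on the minus strand (FBgn0014388). Its 1 thresholded summit, at 3418925, lay 964 bp upstream of the internal start and had a signal of 73 (rank 2103), with rank 1400 in replicate 2 and 3524 in replicate 3. A pooled summit deeper in the gene, at 3410021, had a signal of 52.6 (rank 3743), with rank 13778 in replicate 2 and 1500 in replicate 3. A further site, 3411762, ranked 1919 in replicate 2 and had no summit within 200 bp in replicate 3. The replicates thus differed on which sty summit was strong.

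Ras85D encodes the small GTPase that links the receptor to the kinase chain. It is 2.51 kb long, on arm 3R at 9510561 to 9513067 on the minus strand (FBgn0003205), in a stretch dense with genes. Its 3 thresholded summits were spaced 2827 and 2751 bp apart. The strongest, at 9515964 with a signal of 136 (rank 596), lay 43 bp upstream of a start shared by Kdm3, a histone demethylase gene, and CG8176. On its other side an exon of mRpL47 ends at 9515908. This summit ranked 687 in replicate 2 and 613 in replicate 3. The middle one, at 9513213 with a signal of 103 (rank 1064), lay 146 bp upstream of the Ras85D start and 114 bp upstream of the start of its divergent neighbour Rlb1, and ranked 1491 in replicate 2 and 669 in replicate 3. The last, at 9510386 with a signal of 77.2 (rank 1890), lay 62 bp upstream of the start of rump, an RNA-binding protein gene, and ranked 3113 in replicate 2 and 1810 in replicate 3. All 3 sat between genes and close to a start, and the middle one cannot be assigned to Ras85D rather than Rlb1 by position. Its sequence is shown because both starts flank it; capitals mark the word GAGAG on the minus strand.
Between Ras85D and Rlb1 (dm6 chr3R:9513113-9513313, plus strand): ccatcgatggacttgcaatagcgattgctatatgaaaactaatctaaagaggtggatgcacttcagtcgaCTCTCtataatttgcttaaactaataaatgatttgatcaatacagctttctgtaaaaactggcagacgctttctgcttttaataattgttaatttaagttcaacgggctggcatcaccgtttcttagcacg

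Raf, a serine/threonine kinase that Ras recruits to the membrane, had the most and the strongest thresholded summits. It spans 48.4 kb of the X chromosome at 2295466 to 2343870 on the plus strand (FBgn0003079). Only 7 of the 13968 protein-coding genes had as many as 9 thresholded summits in the gene or within 5 kb, Raf among them, and the highest count was 10, at tara. Summits of overlapping peaks were counted separately, such as those at 2296244 and 2296443. Among coding genes, 7 of the 9 were nearest to a Raf start. Raf and aop were the 2 members with 6 or more, a count that 0.222% of all protein-coding genes and 1.76% of those of 20 kb or more reached. Of the 9 summits at Raf, 8 fell within 10.3 kb around the first start, from 2293775 to 2304075, and neighbours from 2296443 on were 1286 to 1851 bp apart.

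The strongest Raf summit, at 2297729 in an intron 2263 bp downstream of the first start, had a signal of 286 (rank 117). It ranked 113 in replicate 2 (signal 177) and 131 in replicate 3 (signal 109), and so stood near the same place in both. Downstream of it in the same stretch, the summit at 2300709 had a signal of 173 (rank 354) and that at 2304075 had 161 (rank 409). Their ranks were 266 and 310 in replicate 2, and 676 and 717 in replicate 3. Between them lay weaker summits at 2299203 (signal 74.7, rank 2014) and 2302224 (signal 94.2, rank 1281). These ranked 2027 and 827 in replicate 2, and 2225 and 3787 in replicate 3. Strong and weak summits thus alternated along the intron in the pooled list.

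Close to the first start of Raf, a summit at 2296244 in the 5′ UTR had a signal of 149 (rank 487), with rank 351 in replicate 2 and 826 in replicate 3. Its neighbour 199 bp away, at 2296443, had a signal of 93 (rank 1313) and lay outside the strongest 2876 peaks of each replicate taken alone, at rank 4242 in replicate 2 and 3055 in replicate 3. Upstream of the gene, the summit at 2293775 (signal 135, rank 609) lay 364 bp upstream of CG2865 and 1691 bp from the Raf start, with rank 755 in replicate 2 and 494 in replicate 3. The last of the 9, at 2329550 (signal 103, rank 1066), lay inside Raf, nearest among coding genes to the start of CG2854 and among all genes to that of lncRNA:CR33218, with rank 1710 in replicate 2 and 847 in replicate 3. Raf has a second start 44.8 kb downstream of the first, just before its coding exons. Around that start, 4 pooled summits lay within 5 kb, the best at rank 14442 with a signal of 24.2, and the nearest thresholded summit was 10.7 kb away. Binding above the threshold at Raf therefore lay mostly around the upstream start, and none lay by the coding part.

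Sequences of 2 Raf summits are shown, the strongest and one that carries a run of alternating G and A. Capitals mark GAGAG, or CTCTC where the word is on the minus strand. In the strongest window single copies are centred at -34 and 20 bp from the summit, and in the other the run lies to the right of the summit.
Raf strongest summit (dm6 chrX:2297629-2297829, plus strand): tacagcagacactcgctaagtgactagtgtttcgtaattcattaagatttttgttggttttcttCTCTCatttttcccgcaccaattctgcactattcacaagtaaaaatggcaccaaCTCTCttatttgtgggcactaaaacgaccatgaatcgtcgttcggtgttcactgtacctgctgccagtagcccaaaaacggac
Raf summit with a GA run (dm6 chrX:2302124-2302324, plus strand): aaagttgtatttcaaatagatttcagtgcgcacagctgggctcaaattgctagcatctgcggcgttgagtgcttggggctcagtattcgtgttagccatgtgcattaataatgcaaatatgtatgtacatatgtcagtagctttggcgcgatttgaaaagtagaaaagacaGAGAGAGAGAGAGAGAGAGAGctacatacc

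Dsor1 encodes the MAP kinase kinase, the fly MEK, which Raf phosphorylates. It is 2.7 kb long, on the X chromosome at 9247342 to 9250037 on the plus strand (FBgn0010269). Its 1 thresholded summit, at 9243581 with a signal of 87.4 (rank 1497), lay 3761 bp upstream of Dsor1 and 114 bp upstream of mxc, a gene needed for the histone locus body. It ranked 1740 in replicate 2 and 1182 in replicate 3. The nearest pooled summit to the Dsor1 starts had a signal of 24 and rank 14564. Dsor1 thus counts as a member with binding only through the start of its neighbour. The sequence by mxc is shown because it is the only thresholded member summit with the word TATCGATA, the site of the factor DREF, which is common at promoters of housekeeping genes; capitals mark that word.
Upstream of mxc, by Dsor1 (dm6 chrX:9243481-9243681, plus strand): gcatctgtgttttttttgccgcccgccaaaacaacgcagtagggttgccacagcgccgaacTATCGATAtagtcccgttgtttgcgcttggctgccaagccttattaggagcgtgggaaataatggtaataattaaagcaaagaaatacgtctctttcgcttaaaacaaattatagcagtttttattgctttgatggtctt

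The gene rl, called rolled, encodes the MAP kinase of the pathway, the fly ERK. It spans 54.5 kb of arm 2R at 1071462 to 1125927 on the plus strand (FBgn0003256), in the heterochromatin next to the centromere. It had no thresholded summit, no pooled summit and no summit of replicate 3. Replicate 2 had 1 summit, at 1080876, with a signal of 11.2 and rank 25836. Its surroundings were nearly empty too: with 100 kb added on either side there were 0 pooled summits, and with 500 kb added there were 2 pooled and 0 thresholded summits in 1054 kb, of which 200 bases were unknown. The nearest pooled summit lay 139 kb beyond the end of the gene. How well reads can be placed in this stretch could not be measured from peak lists. A gene without a summit in these lists is not shown to be free of Zelda.

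The gene pnt encodes Pointed, an ETS activator that the MAP kinase phosphorylates, and its isoforms come from separate starts. It lies on arm 3R at 23290231 to 23346167 on the minus strand (FBgn0003118) with 3 annotated starts. The stronger of its 2 thresholded summits, at 23326487 with a signal of 122 (rank 763), lay in an intron, 12172 bp upstream of the nearest start of a coding gene, which is that of pnt itself. It ranked 745 in replicate 2 and 985 in replicate 3 and was the farthest from a coding start of all 27. The other, at 23347078 with a signal of 67.2 (rank 2475), lay 911 bp upstream of the first start, with rank 7335 in replicate 2 and 1434 in replicate 3. The other starts had relaxed summits only, of rank 5935 at -252 bp from the middle start and of rank 3155 at -298 bp from the last. In replicate 3 a summit 299 bp upstream of the last start, at 23295537, ranked 1463, while the nearest in replicate 2 ranked 9127.

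The sequence upstream of the first pnt start is shown because it holds a run of the same kind as at Raf; capitals mark the run, here on the minus strand, and ACAGTGG on the minus strand.
Upstream of pnt (dm6 chr3R:23346978-23347178, plus strand): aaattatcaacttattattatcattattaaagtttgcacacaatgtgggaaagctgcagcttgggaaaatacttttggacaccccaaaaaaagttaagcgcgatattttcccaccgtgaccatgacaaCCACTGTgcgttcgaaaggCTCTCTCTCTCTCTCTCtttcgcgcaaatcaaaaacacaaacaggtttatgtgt

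The gene aop encodes Yan, an ETS repressor that competes with Pointed for sites and that the MAP kinase turns off. It lies on arm 2L at 2156484 to 2178754 on the minus strand (FBgn0000097), with starts at 2178754 and 2161527. Its 6 thresholded summits fell into 2 groups of 3, separated by 12904 bp. By the first start, summits at 2180283 (signal 103, rank 1053), 2179599 (83.3, rank 1645) and 2177865 (75.2, rank 1988) lay 1529 and 845 bp upstream and 889 bp downstream of it. In replicate 2 they ranked 845, 1840 and 2679, and in replicate 3 they ranked 2216, 1448 and 1732. By the internal start, the strongest aop summit, at 2164961, had a signal of 118 (rank 818), with rank 1140 in replicate 2 and 646 in replicate 3. Closer to that start, summits at 2163694 (signal 76.3, rank 1936) and 2161799 (signal 70.5, rank 2230) had ranks of 1720 and 1695 in replicate 2, and of 3826 and 2467 in replicate 3. The aop summits were thus of middling strength, and 5 of the 6 were among the strongest 2876 of both replicates.

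Of the 27 thresholded summits, 17 lay in introns, 8 between genes, 2 in 5′ UTRs and 0 in coding exons. The same shares over all thresholded summits were not computed, so these counts describe the members only. The member summits stood farther from starts than thresholded summits in general. Within 500 bp of a start of any coding gene lay 10 of the 27, which is 37%, against 64.5% of all 2876, and the median distance was 911 bp, against 181 bp. Within 1 kb the gap was smaller, at 59.3% against 72.3%. Raf, aop and pnt supplied 15 of the 17 summits that lay beyond 500 bp, and the other two were at aos and sty. The share of 37% is over summits that often share a gene and moves with the window (43.8% with genes extended by 10 kb, 22.2% inside genes). The share over thresholded summits in windows of genes of like length was not computed. The greater distance is therefore not shown to be particular to the members.

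All 27 member summits had a summit within 200 bp in the relaxed list of each replicate, against 99.1% of all thresholded summits. Thresholded peaks were chosen by the authors for reproducibility between these same replicates, so a match in both was largely set by that choice. Among each replicate's strongest 2876 peaks stood 24 in replicate 2 (88.9%, against 86.3% of all) and 23 in replicate 3 (85.2%, against 78.8%). Both held 20 of the 27 (74.1%, against 66.9%). Ranks were better in replicate 2 at 13 summits and in replicate 3 at 14, and at 12 of the 27 one rank was more than 2 times the other. By the ratio of ranks, the replicates parted most at the summits at spi 19575925, strong in replicate 2, and at pnt 23347078 and aos 16483970, strong in replicate 3. A further 10 summits at spi, sty, pnt, aop and Egfr were among the strongest 2876 of 1 replicate without being thresholded, 5 in each replicate.

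The sequence within 100 bp of each summit was searched on both strands for fixed words. CAGGTAG lay at 1 of the 27 thresholded member summits, an aop one, which is 3.7%, against 2.02% of all thresholded summits. The count was 0 within 50 bp and 2 within 200 bp, and 3 when the strongest 2876 peaks of replicate 3 were used in place of the thresholded list. Among words that differ from CAGGTAG at 1 base, CAGGTAA lay at 2 member summits (7.41%, against 2.12% of all), CAGGCAG at 1 (3.7%, against 2.16%), and TAGGTAG and CAGGTAT at 0 (against 1.63% and 1.08%). Both copies of CAGGTAA were at a 5′ exon of Raf, 1 of them spanning the exon's end. The textbook Zelda words were therefore few at the strongest member summits, as they were at thresholded summits in general.

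Words of other factors gave a different picture at 1 point. GAGAG, the core word of GAGA factor, lay at 16 of the 27 member summits, which is 59.3%, against 23.6% of all thresholded summits. Raf had it at 8 of 9 and aop at 4 of 6, and the members other than Raf at 8 of 18, or 44.4%. It was more common at distant member summits, with 13 of 17 (76.5%) beyond 500 bp of a start and 3 of 10 (30%) within it, against 25.7% and 22.5% of all thresholded summits in those places. Over all 204 pooled member summits the share was 29.9%, against 24% of all pooled summits. GAGAG is short and overlaps itself in runs such as those printed for Raf and pnt, so a summit counts once however many copies it holds. At Raf, the copy nearest each summit with the word was centred at 66, -86, 86, 20, -69, 73, -70 and 13 bp from it. At the other members the nearest copies lay at -98 (aos), -28 (Ras85D), -69 and 49 (pnt), and -28, 35, 55 and -57 bp (aop). Signs follow the plus strand. Many copies thus lay well away from the summit, so the count of 16 depends on the window. Shares in a narrower window were not computed for GAGAG. No test was made, and summits of 1 gene are not independent of each other.

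TATCGATA lay at 1 of 27 member summits (3.7%, against 6.68%) and ATCGATA, which lies inside it, at 3 (11.1%, against 13.2%). The M1BP word GGTCACAC lay at 0 (against 3.58%). ACAGTGG, a word picked earlier because it is frequent at all thresholded summits, lay at 6 (22.2%, against 8.8%): at the spi internal start, upstream of aos and of pnt, at 2 Raf summits and at the 5′ UTR of aop. Other words picked the same way, AGTGTTG and AACACTG, lay at 0 (against 9.91% and 8.31%). The ETS type word CCGGAAG, the class of site that Pointed and Yan bind, lay at 0 (against 0.8%). Median content of G and C was 40.3% in the member windows, against 37.3% in all thresholded windows. A match is a description of the letters only.

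**Figure D3:**
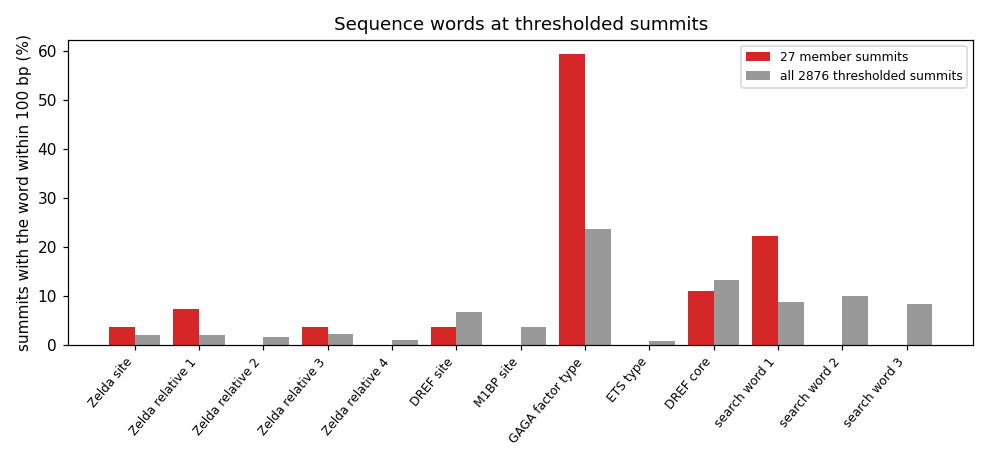
Share of thresholded summits with each word within 100 bp, in percent, for the 27 member summits (red bars) and all 2876 thresholded summits (grey bars); relatives 1 to 4 of the Zelda site differ from it at 1 base, and search words 1 to 3 are those picked for their frequency over all thresholded summits. The GAGA factor word reaches 59.3% at the members and 23.6% over all, and the first search word reaches 22.2% and 8.8%.

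In the relaxed pooled list CAGGTAG lay at 9 of 204 member summits, which is 4.41%, against 1.98% of all pooled summits. The aos and aop genes had 3 each and Egfr, sty and Raf 1 each, while spi, Ras85D, Dsor1 and pnt had 0. Replicate 3 gave the better rank at 8 of these 9, or 88.9%, whereas it did so at 52.3% of the 595 pooled summits with the word and at 46.1% of all 204 member summits. The Egfr summit and 2 of those at aos had no summit in replicate 2 at all, and the Raf one was the exception with the better rank there. The summits were weak, since only the aop one at rank 818 was thresholded and those at aos ranked 10256 to 13427. With the word within 50 bp the count was 4 in place of 9. Sites at aos, sty and Raf are shown with 11 bases on either side, on the strand that reads CAGGTAG, because they match the textbook word; capitals mark the word.
aos intron, rank 10256 (dm6 chr3L:16473272-16473300, minus strand): cctaaagagctCAGGTAGcagcaggtgca
aos intron, rank 13182 (dm6 chr3L:16475876-16475904, plus strand): tgtgtttccatCAGGTAGtctccgctata
Upstream of aos, rank 13427 (dm6 chr3L:16487344-16487372, minus strand): cactcacctggCAGGTAGggttaaccaca
sty intron, rank 3743 (dm6 chr3L:3409948-3409976, plus strand): taggtagatttCAGGTAGaattcgaattc
Raf intron, rank 6122 (dm6 chrX:2318539-2318567, minus strand): ccgttggtatcCAGGTAGccgttgacaaa

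To place the members in the wider pathway, 50 further genes in 7 roles were examined. Of these, 27 had a thresholded summit in the gene or within 5 kb, against 8 of the 10 members and 40.7% of all protein-coding genes. Within 1 kb of a start 19 had one, against 7 of the 10 members and 19.7% of all protein-coding genes. Most of the 50 were 5 kb or longer. Of all genes of 5 to under 20 kb and of 20 kb or more, 50.2% and 51.1% had a thresholded summit within 5 kb. The counts of 27 and 19 were not matched for length. Regulators and scaffolds of Ras and Raf were bound most often in the wider sense, at 8 of 10 (4 within 1 kb). Other receptor tyrosine kinases had binding at 1 of 7, the insulin receptor gene InR (signal 120, rank 785, at -92 bp from the start). The count of 27 was 15 when summits had to lie inside the gene. In what follows, genes with binding by a start are given by their best summit within 1 kb of a start. Other genes are given by their best summit in the gene or within 5 kb, so the 2 kinds of value are not directly comparable.

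Among ligands and their processing, 3 of 8 had a thresholded summit and 1 had it by a start: Krn, a relative of spi, with a signal of 180 (rank 330) at -84 bp from a start that Ndfip has at the same distance. The ligand genes vn and grk had none, with best ranks of 3224 and 3776 in the gene or within 5 kb. Within 1 kb of a start the best rank of vn was 18887, and grk had no relaxed summit there. Below the receptor, 4 of 6 had a thresholded summit. Shc, an adaptor, had the strongest summit of the members and all these genes (signal 453, rank 29, at -103 bp from the start), and csw, the Shp2 phosphatase, and dos, an adaptor, had signals of 76.6 (rank 1924) and 72.1 (rank 2156). The adaptor drk had a thresholded summit within 5 kb (signal 132, rank 643) but none by its start, and the exchange factor Sos had a best rank of 5555.

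Among regulators of Ras and Raf, RasGAP1, which turns Ras off, had a signal of 182 (rank 320), ave, a scaffold, 168 (rank 367, nearest to the start of Rpn6), 14-3-3zeta, which binds Raf, 127 (rank 697), and Sur-8, a scaffold, 93.2 (rank 1303). Nf1 and vap, which also turn Ras off, had best ranks of 6021 and 11772 within 5 kb (11350 and 11772 within 1 kb of a start). Of the MAP kinase phosphatases and substrates, 6 of 9 had a thresholded summit and 5 by a start. They were the corepressor gro (238, rank 168), ebi (155, rank 445), the repressor cic (150, rank 479), edl, whose product binds Pointed and Yan (66.5, rank 2520), and the phosphatase Mkp3 (65.6, rank 2571). PTP-ER and S6kII had best ranks of 3731 and 15612 within 5 kb (7995 and 18280 within 1 kb of a start). The surface inhibitor ed had a signal of 73.6 (rank 2076) and kek1 a best rank of 27263. The FGF receptor genes btl and htl had best ranks of 6094 and 2882 within 5 kb. The htl summit lay within 1 kb of a start and was just past the threshold, while btl had no relaxed summit within 1 kb. In the JNK and p38 cascades 4 of 8 genes had binding by a start: Mkk4 (408, rank 42, nearest to the start of SLIRP2), p38a (101, rank 1087), Mekk1 (75.3, rank 1986) and p38b (64.5, rank 2659). The kinases bsk and hep had best ranks of 5487 and 5014 within 5 kb (5487 and 6694 within 1 kb of a start).

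**Figure D4:**
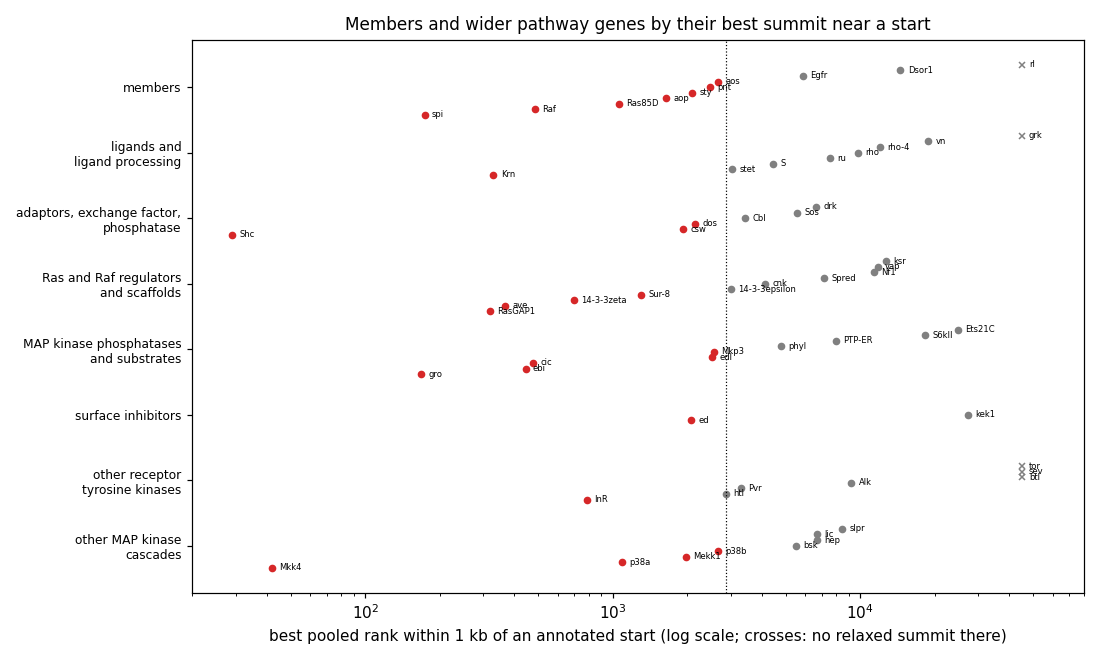
Best pooled rank within 1 kb of an annotated start for the members (top row) and the wider pathway genes by role, on a log scale; red points are thresholded, grey points are not, crosses have no relaxed summit there, and the dotted line is rank 2876. Shc (rank 29), Mkk4 (rank 42) and gro (rank 168) lie left of spi, the best placed member at rank 174.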

How the data were processed

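Chromatin of Zelda-GFP embryos was profiled in 2 biological replicates of 1 group. Peak lists on dm6 were deposited by the authors: a relaxed list of 30000 peaks per replicate, a pooled relaxed list, and a shorter thresholded list of peaks reproducible between replicates, per the text deposited with them. The lists on dm3 were not used here. Which aligner, caller, versions and filters were used is not given in the sources used here; the deposited text mentions a control alignment, whose content it leaves unnamed. Each deposited peak comes with a signal set by the authors, which serves here to describe peaks and order them inside their own list, and a −log10 q value, which stood at a ceiling of 3.94 for 4383 pooled peaks and ranked nothing here. Another deposited column, the authors' offset of the summit from the peak's start, gave the summit. Read depth is unknown, so no interval or floor is given.

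Gene models came from Ensembl release 115 on BDGP6.54 (13968 protein-coding genes, 19630 starts), and sequence from the NCBI Release 6 assembly, the dm6 build; all 10 members had the same coordinates in both annotations. Positions are counted from 1 and distances are along transcription, negative upstream. Words were searched within 100 bp of summits on both strands. Shares of all genes or summits stand beside counts of members, and no p-value was computed, since 1 group without contrast allows no test over samples. The members, the gene lists and the words were chosen with earlier results of these data known. The text names all 10 members, genes whose start is nearest to a member summit, every wider pathway gene with a thresholded summit within 1 kb of a start, and up to 2 genes per role without one in list order; Gap1 appears as RasGAP1. Alternatives were other extensions of the gene, distances, windows and assignments, the stronger 1438 thresholded peaks, and each replicate's strongest 2876 peaks alone. Scripts in Python 3.11.15 with numpy 2.4.6 and pandas 2.3.3 were tested on simulated data. Sequences at aop are not reported here.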

Additional observations from a re-analysis of the deposited data

How the results depend on the processing

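The count of 8 members with a thresholded summit in the gene or within 5 kb ranged from 6 to 9 over 7 alternatives. Within 1 kb of a start, 7 members had one, against 3 with the stronger 1438 thresholded peaks, 4 with a limit of 500 bp, and 5 to 6 with 1 replicate left out. The 27 thresholded summits, and the 27 found in both replicates, were each 17 with the stronger 1438 peaks; with 1 replicate left out the windows held 27 to 28. The share within 500 bp of a start, 37%, was 43.8% with genes extended by 10 kb, 22.2% without extension, 18.5% for 200 bp, 59.3% for 1 kb, and 32.1% to 40.7% with 1 replicate left out. CAGGTAG at thresholded member summits, 1 in the main count, was 0 within 50 bp, 2 within 200 bp, and 1 to 3 with 1 replicate left out; at pooled member summits, 9 in the main count, it was 4 within 50 bp and 6 to 9 with 1 replicate left out. Of the wider pathway genes, 15 in place of 27 had a thresholded summit when genes were not extended. The 1 change of a replicate that moved a value by more than 1.5 times was leaving out replicate 2, for CAGGTAG. The causes were not tested. No paired analysis was possible because all samples belong to 1 group.

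The lists hold no read counts, so no counting error can be given for weak summits, and 2 replicates give the only spread. Which gene a summit acts on cannot be read from distance, and at Ras85D and Dsor1 the nearest start belonged to another gene.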
